A study of Oryza sativa Japonica Group with 17 samples.

Results

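The loci described here are the expressed loci around the centromere of rice chromosome 8. They were chosen by position and level in the authors' deposited table of RNA-seq results, as every locus numbered from LOC_Os08g14000 to LOC_Os08g28000 whose mean normalized count over 4 libraries was 5 or higher. The rule took 365 of the 1276 loci numbered in that interval, or 28.6%. On the rest of chromosome 8 the same minimum was passed by 1473 of 2912 loci (50.6%), and in the whole table by 27473 of 55986 loci. Of the numbered loci of the interval, 493 (38.6%) had a mean of 0 and 418 lay above 0 but below 5. On the rest of the chromosome 683 loci (23.5%) had a mean of 0.

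The study holds 17 samples of the DongJin and ZH11 rice backgrounds, made from leaves of seedlings 12 days old. Besides RNA, 1 small RNA library each of the wild type Cr-DJ and of osdrm2, a mutant of the DNA methyltransferase gene OsDRM2 in DongJin, 1 H3K27me3 library of Cr-DJ and 1 H3K9me2 library of ZH11 are used. The RNA comparison sets a mutant titled osddm1a/1b against the wild type Cr-DJ-1, both in DongJin, with 2 libraries per genotype. The titles name both OsDDM1 genes, whereas a further label of the mutant names osddm1b alone. The sources used here give neither the kind of mutation nor whether the 2 libraries of a genotype came from separate plants. The p-values therefore measure only how these libraries spread, which may be a technical spread.

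DDM1 is a chromatin remodeller that lets DNA methyltransferases reach nucleosomes in heterochromatin, and it is known from Arabidopsis as a keeper of silence at transposable elements. The regions that flank a plant centromere are rich in such elements, carry dense DNA methylation and H3K9me2, and hold few active genes. The centromere of rice chromosome 8 is known for its small amount of satellite repeat and for active genes within it. OsDDM1a and OsDDM1b are the rice counterparts of DDM1.

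In the authors' deposited table OsDDM1b, at a mean count of 398, fell in the mutant by 3.27 log2 units (standard error 0.16, DESeq2 adjusted p = 1.27e-86). OsDDM1a, at a mean count of 274, differed by -0.14 in the authors' deposited table (standard error 0.16, DESeq2 adjusted p = 0.511). The table carries no header. Its name in the file list puts the wild type before the mutant, and that reading makes OsDDM1b the lowered gene, so the direction used throughout (mutant over wild type) is the likely one, and OsDDM1b is no separate check of it. The leaf markers CAB2R and CAB1R had mean counts of 3070 and 2135 and rose by 1.62 and 1.23 in the authors' deposited table. The meristem markers OSH1 and OSH15 lay far lower, at means of 30.4 and 21.0, and rose by 1.59 and 1.21 in the authors' deposited table. Root OsLsi1 and OsIRT1 stood at means of 486 and 11.1 and differed by 0.01 and -0.16 in the authors' deposited table, neither past the threshold. Endosperm GluA2, at a mean of 224, fell by 0.40 in the authors' deposited table (DESeq2 adjusted p = 0.0481). The part of these shifts in the results below was not tested. In leaf RNA, fewer cells of a type and less RNA per cell cannot be told apart.

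The expressed loci of the interval were less abundant than those elsewhere. Their median mean count was 188, against 300 on the rest of chromosome 8 and 291 over all loci that passed the minimum. Together with the loci below the minimum, the interval held 0.998% of the summed mean counts of the table. The raw totals of the libraries are unknown.

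More of these loci were called higher in the mutant than lower. By the authors' adjusted p at 0.05, 123 of the 365 rose (33.7%, Wilson 95% interval 29.0 to 38.7) and 69 fell (18.9%, 15.2 to 23.2). Over all loci that passed the minimum, 28.3% rose and 20.3% fell. On the rest of chromosome 8, 25.7% rose and 21.3% fell. A rise of at least 2-fold was listed for 21.4% of the interval's loci, for 10.7% on the rest of the chromosome and for 12.4% of all loci. A fall of that size was listed for 2.74%, 2.51% and 3.12%. The median change stayed near 0, at 0.07 on the log2 scale in the interval, 0.01 on the rest of the chromosome and 0.04 over all loci. Among the interval's loci with a mean of at least 100 the median was -0.050, so its sign rests on the weakly read ones. These shares are descriptions. A locus that passed the minimum through the mutant alone had to differ, so such loci are counted separately further on.

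**Figure D1:**
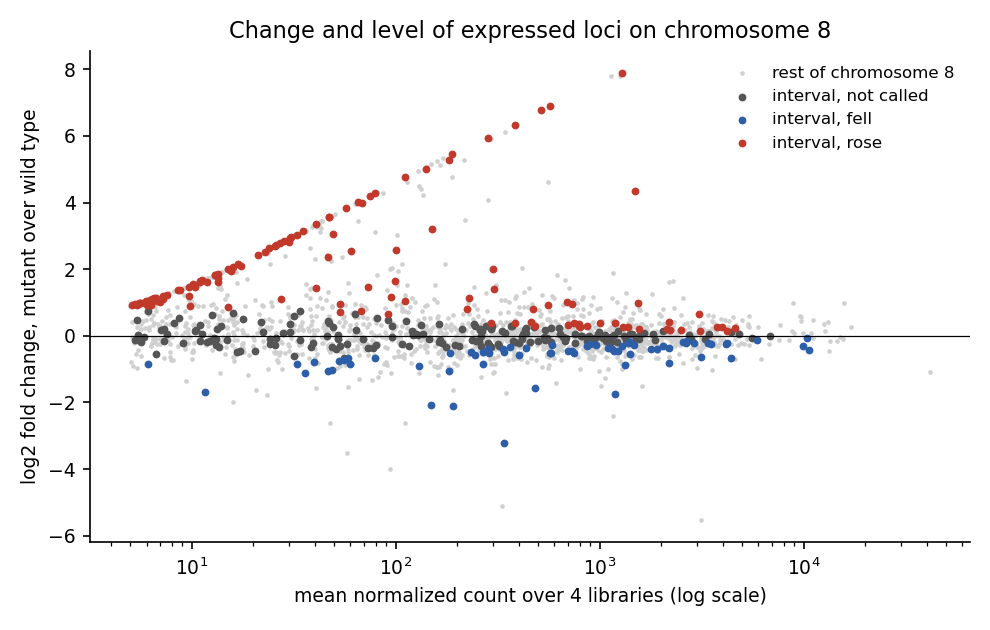
Each point is 1 locus of chromosome 8; the x axis gives the mean normalized count over 4 libraries (log scale) and the y axis the moderated log2 fold change of mutant over wild type from the authors' deposited table. The rises of the interval form a rising edge at the top left, which holds loci with few or no wild-type reads, and reach 7.89, while the falls reach -3.22.

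The surplus of rises, counted at any size, lay among the weakly read loci. At a mean count of 5 to 20, 42 of 77 loci of the interval rose (54.5%), against 29.4% on the rest of chromosome 8 and 33.9% of all loci. At 20 to 100, 34 of 81 rose (42.0%), against 23.0% and 28.5%. From 100 to 1000 the shares were 22.1% in the interval, 22.1% on the rest of the chromosome and 24.4% over all loci. At 1000 or more, 18 of 76 loci of the interval rose (23.7%), against 31.1% and 31.5%. Rises of at least 8-fold by the moderated fold had a larger share in the interval from a mean of 20 on. At 20 to 100, 11 loci of the interval (13.6%) rose that much, against 7.81% on the rest of chromosome 8 and 8.66% of all loci. At 100 to 1000, 9 of 131 loci of the interval (6.87%) did, against 3.14% and 3.36%. By the reads solved further on, most of these 9 had at most 3 wild-type reads. Such loci reached that level through the mutant alone, so their large rise was built in. At 1000 or more, 2 loci (2.63%) did, against 0.53% and 0.38%.

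The share of falls grew with level, in the interval and over all loci. In the interval 2.60% fell at a mean of 5 to 20, 12.3% at 20 to 100, 20.6% at 100 to 1000 and 39.5% at 1000 or more. The matching shares over all loci were 3.32%, 9.14%, 23.4% and 33.7%. Among the 207 loci of the interval with a mean of at least 100, 47 rose and 57 fell, and 82 of these changes were smaller than 2-fold.

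**Figure D2:**
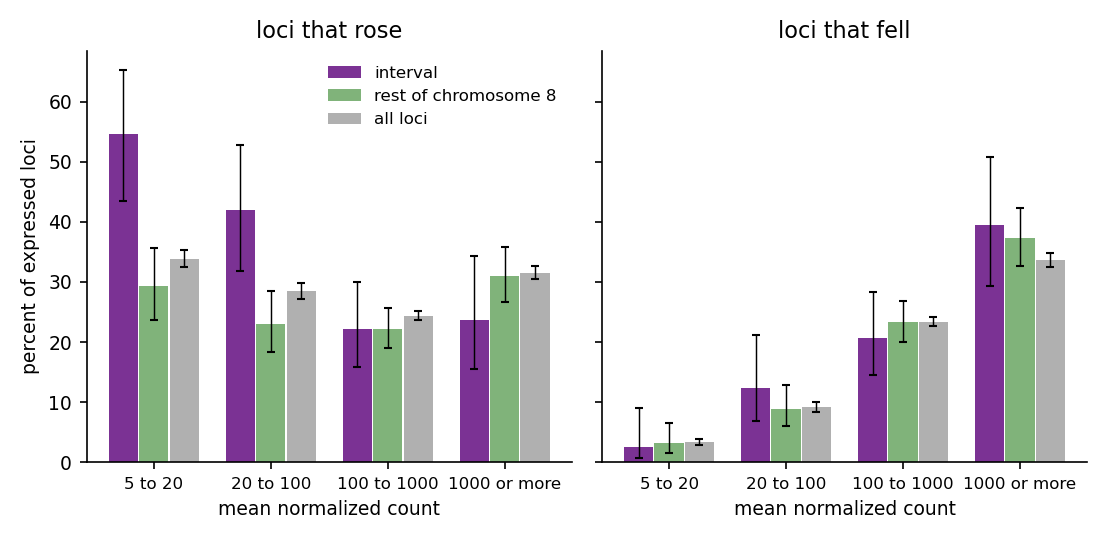
Bars give the percent of expressed loci that rose (left) or fell (right) by the authors' adjusted p in 4 classes of mean normalized count, with Wilson 95% intervals that cover counting error only. The interval stands above the other bars for rises below a mean of 100 (54.5% and 42.0%), and its intervals overlap theirs from 100 on.

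The deposited table has no value per library, but the reads of single loci can be read back from it. The mean of a locus is a sum of 4 whole read numbers, each divided by its library's size factor, and was written to 10 digits. Wild-type size factors of 1.10 and 0.891 and mutant ones of 1.15 and 0.888 fitted. The repeat number of each library could not be recovered, so the libraries are called a and b within a genotype. Every locus with a mean of 5 to 50 could be resolved: 123 in the interval, 369 on the rest of chromosome 8 and 6744 in all.

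Of the 123 weakly read loci of the interval, 43 had 0 reads in both wild-type libraries (35.0%, Wilson 95% interval 27.1 to 43.7). This held for 49 of 369 loci on the rest of the chromosome (13.3%, 10.2 to 17.1) and for 17.6% of all loci of that level. All 43 had reads in both mutant libraries, from 8 to 115 reads in library a (median 29) and from 8 to 85 in library b (median 23), and all 43 were called higher. After scaling by the size factors, the ratio of mutant library b to a had a median of 0.944 and ran from 0.591 to 2.11. A call of higher was fixed by the choice of such loci, since all of those in the table (1185 of 1185) were called so. With 0 reads in the wild type, a fold is only a lower bound. Against a floor of 3 counts over both wild-type libraries, the 43 loci were at least 6.74-fold to at least 62.9-fold higher. The moderated log2 changes of the same loci in the authors' deposited table ran only from 0.91 to 3.57. A rise of at least 8-fold thus applied to 6 of the 123 loci by the moderated fold. By the reads or their bound 37 were counted (30.1%, against 17.0% of all loci of that level and 15.2% on the rest of the chromosome). That count by reads left out, in every set, loci with some but at most 3 wild-type reads, whatever their fold. The shares by reads are therefore lower limits.

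The minimum on the mean was passed through the mutant alone by 61 of the 123 loci (49.6%), whose wild-type mean was below 5. That share was 28.7% on the rest of the chromosome and 34.1% of all loci of that level. Of those 61 loci, 58 rose (95.1%, against 76.4% on the rest of the chromosome and 79.9% of all such loci), a call that the minimum on the mean largely builds in. Of the 62 loci with a wild-type mean of at least 5, 4 rose (6.45%) and 7 fell (11.3%). On the rest of the chromosome, 8.75% of such loci rose and 5.32% fell, and over all such loci 7.61% rose and 7.04% fell. At this level of reads nearly all rises in the interval were thus at loci with a wild-type mean below 5. The median over the 123 loci was 5.31 normalized reads in the wild type against 20.3 in the mutant. On the rest of the chromosome the medians were 11.5 and 19.2. Every locus of a wild-type mean below 5 was then left out, at any level at which reads were resolved. Of the 291 loci left in the interval 17.9% rose, against 20.6% of 1347 on the rest of chromosome 8. The difference was -2.69 percentage points, opposite in sign to that over all members. Mostly loci that rose were left out, so this turn is largely built in. Above a mean of 100, reads were solved only for changes of at least 8-fold, so there only large rises could be left out.

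Both mutant libraries lay above both wild-type libraries at 78 of the 123 loci (63.4%, against 54.5% of all loci of that level). Both lay below at 20 loci (16.3%, against 20.4%), and the genotypes overlapped at 25. Loss of all reads was seen at 1 locus, LOC_Os08g23600. It had 20 and 25 reads in the wild-type libraries and 0 in both mutant libraries.

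**Figure D3:**
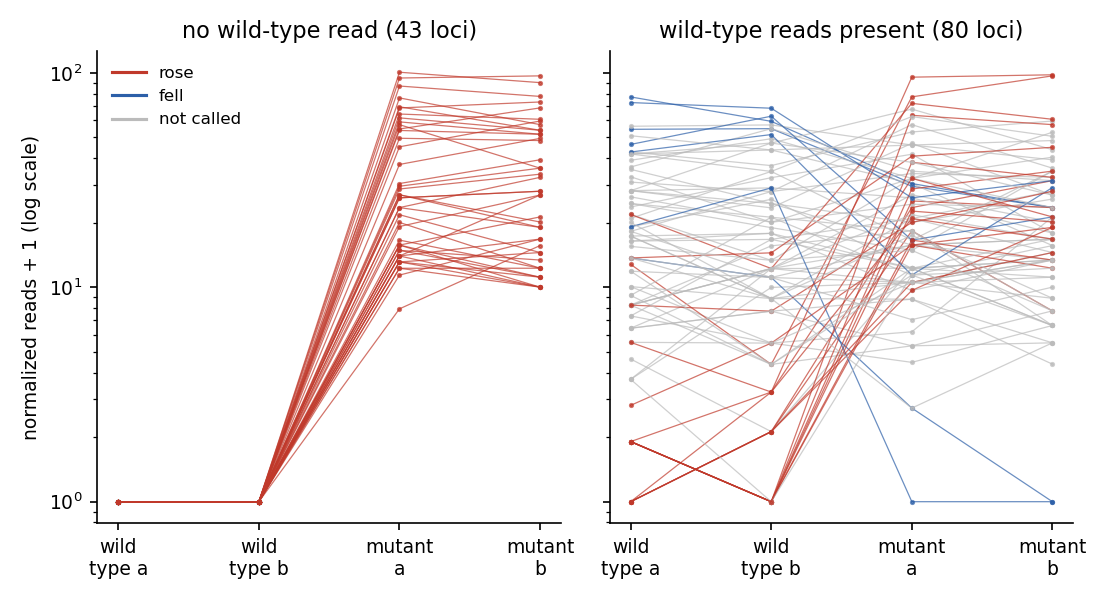
Each line is 1 locus of the interval with a mean of 5 to 50, drawn through its normalized reads + 1 (log scale) in wild-type libraries a and b and mutant libraries a and b, coloured by the authors' call. The 43 loci on the left had no wild-type read and all rose; of the 80 loci on the right, 19 rose, 7 fell and most were not called.

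Most of the largest rises whose reads were resolved came from loci with no or almost no wild-type read. LOC_Os08g25640 had a mean count of 1284 and rose by 7.89 log2 units in the authors' deposited table (standard error 0.27, DESeq2 adjusted p = 2.62e-180), and its reads could not be resolved. LOC_Os08g15220 had 0 and 0 reads in the wild-type libraries and 1292 and 1028 in the mutant libraries. It was thus at least 757-fold higher, where the authors' deposited table lists a log2 change of 6.91 (standard error 0.29, DESeq2 adjusted p = 4.8e-121). LOC_Os08g19050 had 0 and 0 wild-type reads and 1213 and 905 mutant reads, a rise of at least 688-fold. Neither of these resolved loci shows a read in a wild-type library. Over the interval 22 loci (6.03%) rose at least 8-fold by the moderated fold, against 3.08% of all loci and 2.85% on the rest of chromosome 8. Of the 20 whose reads were resolved, 13 had no wild-type read and 18 had at most 3. On the rest of chromosome 8 this held for 20 and 29 of 37. Over all such loci with resolved reads it held for 302 (66.4%) and 413 (90.8%) of 455. The interval's shares, 65% and 90%, were near these, while those on the rest of chromosome 8 were 54.1% and 78.4%. Off chromosome 8, reads were solved only below a mean of 100, so the sets differ in level. No trait of the interval is read from these shares.

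Falls were fewer at large sizes. LOC_Os08g26710, at a mean count of 338, fell by 3.22 log2 units in the authors' deposited table (standard error 0.18, DESeq2 adjusted p = 4.29e-71). LOC_Os08g24200, at a mean of 191, fell by 2.10 (standard error 0.20, DESeq2 adjusted p = 6.04e-24) in the authors' deposited table. Neither could be resolved into reads. Among resolved loci, LOC_Os08g23600 was at least 15.7-fold lower by the same floor of 3 counts, and fell by 1.68 in the authors' deposited table (standard error 0.38, DESeq2 adjusted p = 3.17e-05). LOC_Os08g20290 had 50 and 55 reads in the wild type against 18 and 18 in the mutant, and fell by 1.12 in the authors' deposited table (standard error 0.34, DESeq2 adjusted p = 0.00333). At both resolved loci every mutant library lay below every wild-type library.

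Some rises lay next to each other. Runs of at least 4 neighbouring expressed loci that all rose were found 6 times in the interval and held 32 of its loci (8.77%). The rest of chromosome 8 held 8 such runs with 38 loci (2.58%), and 4 runs of falls with 17 loci, while the interval held no run of falls. Neighbours here are expressed loci next to each other by number, and unread loci may lie between them. Neighbouring loci may share a transcript, so they are not independent. Most loci of the interval's runs with resolved reads had no wild-type read, and their call of higher was fixed by that choice. The surplus of runs is thus no result apart from the larger share of rises in the interval and the surplus of such loci. Runs were not counted over all loci.

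The run from LOC_Os08g18730 to LOC_Os08g18830 held 6 loci without a wild-type read. Its first locus had 17 and 9 reads in the mutant libraries and its last 14 and 8, and the locus with the highest mean had 62 and 60. The longest run, from LOC_Os08g22420 to LOC_Os08g22830, held 7 loci, 5 of them without a wild-type read. LOC_Os08g22420 had 2 and 4 reads in the wild type against 17 and 16 in the mutant, and LOC_Os08g22830 had 0 and 0 against 87 and 50. Every locus of both runs whose reads were resolved was higher in each mutant library than in each wild-type library. The choice of loci largely fixed this, since runs hold only loci called higher and most of these had no wild-type read.

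The run from LOC_Os08g17000 to LOC_Os08g17050 mixed levels. LOC_Os08g17000 was read in both genotypes, with 42 and 32 reads in the wild type against 68 and 72 in the mutant. LOC_Os08g17050 had 0 and 0 reads against 256 and 198, at least 148-fold higher. The run from LOC_Os08g14140 to LOC_Os08g14195 began with 3 loci without a wild-type read and ended with a well-read locus, LOC_Os08g14195, at a mean of 787 and a log2 change of 0.34 in the authors' deposited table (standard error 0.10, DESeq2 adjusted p = 0.00127). The run from LOC_Os08g21920 to LOC_Os08g22028 held 5 loci, 4 of them without a wild-type read, with 33 and 31 mutant reads at the first and 15 and 8 at the last. The run from LOC_Os08g27870 to LOC_Os08g27990, at the end of the interval, held 4 loci. LOC_Os08g27870 had 1 and 0 reads in the wild type against 171 and 110 in the mutant, and LOC_Os08g27990 had 0 and 0 against 13 and 10.

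Along the chromosome the pattern had no sharp edge at the ends of the interval. In bins of 2000 locus numbers, the share of expressed loci that rose ran from 30.4% to 42.0% in the 7 bins of the interval (median 33.3%) and from 20.7% to 35.4% in the 16 other bins (median 24.4%). The bins on either side of the interval, 12000 to 14000 and 28000 to 30000, had rises at 35.0% and 33.8%, within the range of the interval. The highest share outside, 35.4%, lay away from the interval at 34000 to 36000. The share that rose at least 2-fold ran from 14.5% to 30.0% inside and from 5.22% to 21.7% outside. Loci of mean 5 to 50 without wild-type reads made up 12.0% to 54.5% of such loci in the interval's bins (median 37.5%) and 4.17% to 36.0% elsewhere. The bin 12000 to 14000, just outside, held that 36.0%.

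**Figure D4:**
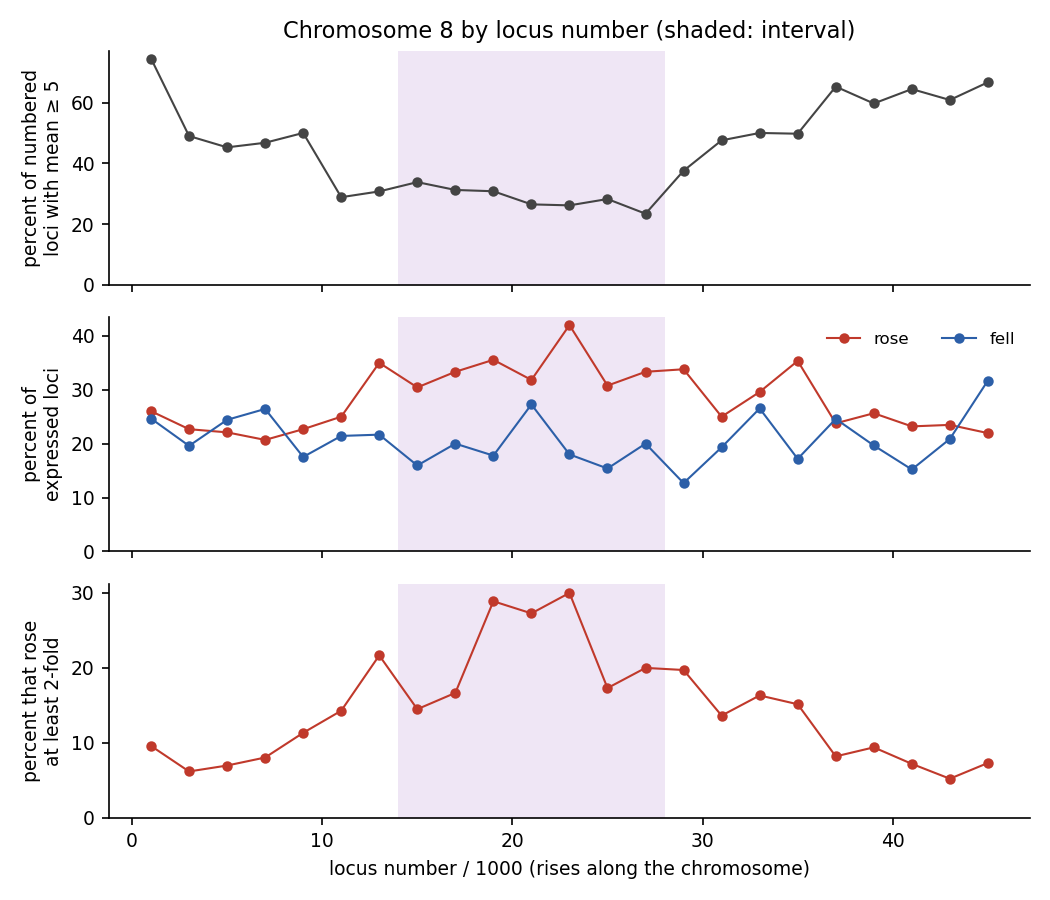
The x axis gives the locus number along chromosome 8 divided by 1000, in bins of 2000, with the interval shaded; the panels give the percent of numbered loci with a mean of at least 5, the percent of expressed loci that rose or fell, and the percent that rose at least 2-fold. The interval holds the lowest share of expressed loci (23.4%) and the highest shares of rises (42.0%) and of rises of at least 2-fold (30.0%), and the neighbouring bins had rises at 35.0% and 33.8%.

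Changes of at least 2-fold were found at 22 of the 207 loci of the interval with a mean of at least 100. At 100 to 1000, 10.7% rose and 3.82% fell by that much, against 8.31% and 3.69% of all loci. At 1000 or more the shares were 2.63% and 1.32%, against 3.06% and 1.51%. The count was thus near that over all loci. At a mean of 1000 or more, LOC_Os08g25640, described above, and 2 further loci changed by that much, named here after their values were seen. LOC_Os08g19420, at a mean of 1493, rose by 4.34 log2 units in the authors' deposited table (standard error 0.11). LOC_Os08g26230, at a mean of 1184, fell by 1.75 in the authors' deposited table (standard error 0.09, DESeq2 adjusted p = 1.8e-90). The most abundant locus of the interval was LOC_Os08g27840, with a mean count of 10581, which fell by 0.42 log2 units in the authors' deposited table (standard error 0.03, DESeq2 adjusted p = 3.45e-40). The next, LOC_Os08g22354, had a mean of 10395.5 and fell by 0.07 in the authors' deposited table (standard error 0.03, DESeq2 adjusted p = 0.0291). OsAGPS2 (LOC_Os08g25734), a small subunit of ADP-glucose pyrophosphorylase, which makes the sugar donor for starch, had a mean of 4203 and rose by 0.15 in the authors' deposited table (standard error 0.04, DESeq2 adjusted p = 0.00130). Os4CL1 (LOC_Os08g14760), a 4-coumarate:CoA ligase of the phenylpropanoid pathway, had 81 and 62 reads in the wild type against 73 and 61 in the mutant. After scaling by the size factors these were 73.4 and 69.6 against 63.2 and 68.7, so both mutant libraries lay below both wild-type libraries by little. Its log2 difference in the authors' deposited table was -0.10 (standard error 0.28, DESeq2 adjusted p = 0.801).

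The locus just inside the minimum was LOC_Os08g14140 at a mean of 5.07, with 0 and 0 reads in the wild type against 13 and 8 in the mutant. The locus just outside was LOC_Os08g25890 at 4.802, with a log2 difference of 0.27 in the authors' deposited table (adjusted p = 0.538). By position, the first member was LOC_Os08g14000 and the last LOC_Os08g27990. The next expressed locus past the end, LOC_Os08g28010, had a mean of 79.2 and rose by 3.11 in the authors' deposited table (standard error 0.31, DESeq2 adjusted p = 9.29e-23). Whether any of these loci is annotated as a protein-coding gene or as a transposable element was not tested, since no annotation of the identifiers was used here.

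Histone marks and small RNAs were listed by coordinate, whereas the loci carry only numbers, so these data describe the chromosome and could not be tied to single loci. The place of the interval in base pairs, and of the centromere, was not determined. With chromosome 8 cut into 5 equal parts by length, peaks of H3K27me3, a mark of silent genes, covered 8.15%, 6.10%, 3.62%, 7.34% and 8.57% of the DNA from the first part to the last, in 1 Cr-DJ library with 936 peaks. Peaks of H3K9me2, a mark of heterochromatin, covered 6.91%, 11.2%, 9.91%, 8.57% and 6.72%, in 1 library with 837 peaks that its labels call ZH11 and the series' file list CrDJ. H3K27me3 cover was thus lowest in the middle part, and H3K9me2 cover highest in the 2 parts before and at the middle. With peaks of at least 4-fold enrichment, H3K9me2 cover in the middle part no longer exceeded the mean of the others (-0.27 percentage points).

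Listed reads of 24-nt small RNAs, the class that guides DNA methylation in plants, were thinnest in the middle. On chromosome 8 neither list held a position with fewer than 4 reads, so the spread of rarer 24-nt reads is not seen. The middle part held 7.51% of the 6750 listed chromosome 8 reads in Cr-DJ (Wilson 95% interval 6.91 to 8.16) and 12.9% of 12774 in osdrm2 (12.3 to 13.5). The other parts held 16.0% to 28.01% in Cr-DJ and 16.9% to 25.9% in osdrm2. Each mark and each small RNA genotype rests on 1 library, none of them from osddm1a/1b, so no difference between genotypes was tested. The intervals cover counting error only, and reads of 1 position are not independent.

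**Figure D5:**
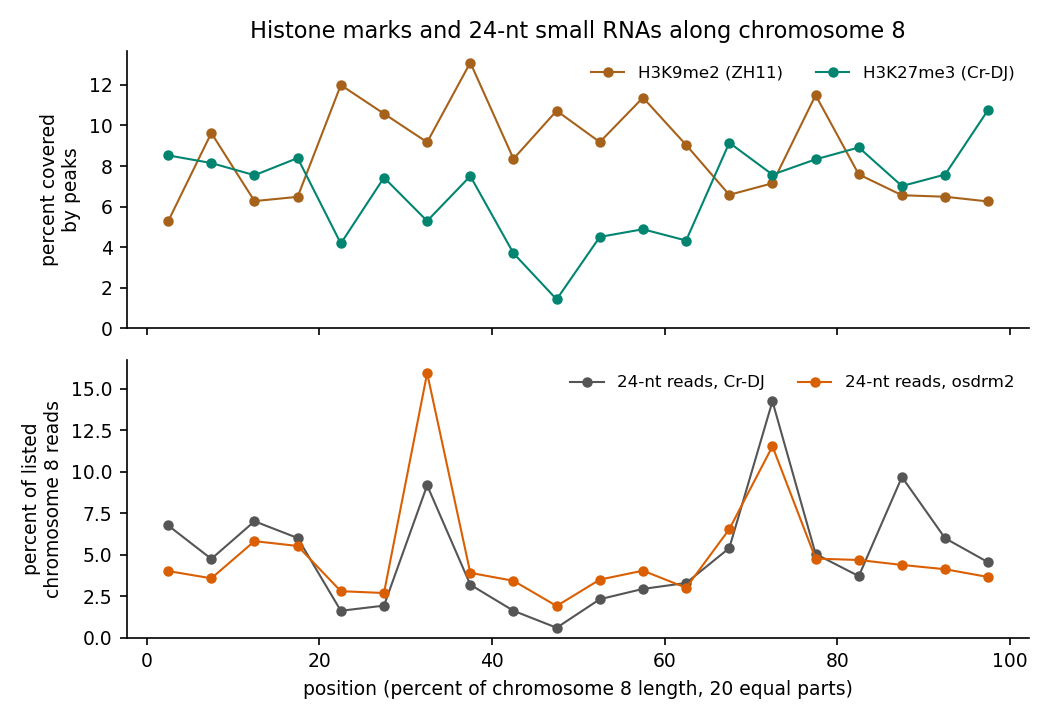
The x axis gives position as percent of the length of chromosome 8, in 20 equal parts; the upper panel gives the percent of each part covered by H3K9me2 (ZH11) and H3K27me3 (Cr-DJ) peaks, the lower the percent of the listed chromosome 8 24-nt reads in Cr-DJ and osdrm2. H3K27me3 cover falls to 1.42% and the Cr-DJ reads to 0.607% just before the middle, where H3K9me2 cover is 10.7%.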

How the data were processed

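RNA-seq of 2 wild-type and 2 mutant libraries was deposited as 1 table without a header. The authors' signal in it is a mean over libraries of normalized counts. The authors' log2 values are fold changes from DESeq2, moderated towards 0. Further columns of the deposited table give their standard error, the Wald score and the p-value, raw and adjusted. DESeq2, HTSeq and TopHat are named in the submitters' processing notes; roles and genome build are not given in the sources used here. The deposited table was not refitted: calls use the authors' adjusted p at 0.05, read at the 4 levels of mean count given above. Per the file headers, read counts, a score and a fold enrichment (ratio) are given per peak, called without a control. Each line of the small RNA files is 1 alignment, and identical lines were counted.

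Reads per library were solved from the means (Python 3.11.15, numpy 2.4.6). Of 9093 loci with means of 5 to 100, 7199 had exactly 1 solution, and 1322 more had 1 once it had to match the direction and least size of the authors' log2 fold, a rule that held at 4634 of 4634 checked loci. On simulated data all unique solutions (864 of 1000 loci) from the mean alone were right. At means from 100 to below 1000, reads were solved only for chromosome 8 loci with a moderated change of at least 8-fold. That step limited the reads of the lower genotype by the authors' fold. The simulation did not cover it.

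The members and lists were chosen with earlier results of these data known. The level classes, the range of 5 to 50, the second solving step, the counts of loci without wild-type reads or with a wild-type mean below 5, and the 8-fold count from reads were chosen after values were seen. Named loci followed a fixed rule: accepted names, the 2 highest means, the edges of the rule and the ends of runs. The rule also took the largest 2 rises and falls by the moderated fold, which can rank loci otherwise than their reads. These were taken overall at a mean of at least 20, and among loci with reads. Of 16 name pairs for chromosome 8 taken from general knowledge, 12 stood on chromosome 8 in the order of the locus numbers in a RefSeq table (assembly ASM3414082v1) that holds no such identifiers; 2 of them are members. Further pairs tried after values were seen are not printed. OsDDM1a, OsDDM1b and the tissue markers were paired from general knowledge.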

Additional observations from a re-analysis of the deposited data

How the results depend on the processing

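The share of loci in the interval that rose, 33.7%, was 28.1% at a mean of at least 20, 22.7% at 100, 28.5% at an adjusted p of 0.01 and 21.4% at 2-fold or more; the share that fell, 18.9%, was 23.3%, 27.5%, 12.9% and 2.74%. The median log2 change turned from 0.07 to -0.0069 at a mean of at least 20 and to -0.050 at 100. The difference in rises from the rest of chromosome 8, 8.04 percentage points (95% interval 2.85 to 13.5), was 3.11 at a mean of at least 20 and turned to -2.85 at 100. That 95% interval covers counting error only. It takes loci as independent, which neighbours are not, and is no test between the lists. A further setting left out loci of a wild-type mean below 5 by reads and kept loci without reads (chosen after seeing the data). The difference then turned to -2.69, the share that rose was 17.9%, the share that fell 23.7% and the median -0.067. Mostly loci that rose were left out, so these shifts are largely built in. The planned filter on a wild-type mean estimated from the moderated fold gave 4.91, but left out only 24 loci of the interval and kept others without wild-type reads. The difference was 12.2 in a narrower interval, 7.96 in a wider one and 8.81 without the flanks, an alternative chosen after seeing the data. The count of loci without wild-type reads, 43, was 48 to 51 with 1 wild-type library left out, 40 with reads from the mean alone and 54 with at most 1 read, all chosen after seeing the data; the count with both mutant libraries above, 78, was 81 to 86 with 1 library left out. With peaks of at least 4-fold enrichment, the cover of the middle of 5 equal parts of chromosome 8, minus the mean of the other parts, moved from -3.92 to -0.91 percentage points for H3K27me3 and turned from 1.56 to -0.27 for H3K9me2. At positions with at least 10 reads, the middle part's 24-nt share moved from 7.51% to 4.81% in Cr-DJ and from 12.9% to 7.44% in osdrm2. Where a cause is not given by a setting's own construction, the cause was not tested. No paired analysis was possible because the repeat numbers of the recovered libraries are unknown; leaving out a numbered replicate was not run for the same reason. Loci of few reads limit the depth: a count of 0 in both wild-type libraries allows a mean of up to 1.505 normalized reads.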
